A study of Homo sapiens with 9 samples.

Results

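The comparison set 3 arrays of HK-1 cells given 20 µM baicalein against 3 arrays of HK-1 cells given 10 µM, which are 6 of the 9 arrays of the series. The other 3 arrays held control cells and entered the statistical model. HK-1 is a human nasopharyngeal carcinoma (NPC) line, here grown as a monolayer. Baicalein from a DMSO stock was given for 24 h in serum-free medium at either dose, followed by 24 h in fresh medium. The sample labels call the control untreated, the study's methods give 1% DMSO as its control, and the array section of those methods names the 10 µM dose only. The labels number the arrays within each group as replicates, and p-values therefore measure the spread between these arrays. Arrays of the same number were scanned in 1 batch, so each number forms a pair of a 20 µM and a 10 µM array, and the difference within a pair is given beside the group difference.

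Baicalein is a flavonoid of the roots of Scutellaria baicalensis and is best known as an inhibitor of lipoxygenases, the enzymes that oxygenate arachidonic acid. Flavonoids as a class can also act on the aryl hydrocarbon receptor and on the NRF2 response, which switch on genes of xenobiotic and oxidant defence. In NPC cells the compound has been studied for effects on growth, migration and adhesion.

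Each array carried 39200 spots, of which 25378 were gene probes with a gene name and 8926 were left empty. Raw intensity is the brightness of a spot, and net intensity is that brightness less the local background around the spot. Background made up 86.5% to 88.3% of the median raw intensity, so a log2 difference of raw intensity understates a difference in spot signal. The empty spots themselves had a median net intensity of 1027 to 1270, and their 95th percentile on each array (1266 to 1823), here the empty-spot bound, was the level a probe had to pass to be read as signal. A fold of net intensity near that level is also compressed. A probe was called bright where its log2 net intensity, averaged over the 9 arrays, passed the mean log2 of the bound, which 1964 of the named probes did (7.74%). Of the 10 epithelial markers measured, keratins and adhesion genes that a carcinoma line would carry, 0 were bright and 7 stayed at or below the bound on every array. The summed net intensity of those 10 markers was 10476 to 12775 at 10 µM and 11023 to 11743 at 20 µM. Of a short set of 14 defining markers of fibroblasts, immune and endothelial cells, PDGFRB alone was bright. Probes of ribosomal proteins, among the most abundant transcripts of growing cells, were bright for 4 of 100, and probes of olfactory receptors for 13 of 303. The label of the cell line could thus not be checked from its defining genes.

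On 2 of the 6 arrays, part of the values matched those of a neighbouring spot on the other arrays. On 20 µM replicate 2 the match to the other arrays at the same spot fell along the array, from r = 0.899 across the spots of rows 1 to 50 to 0.444 in rows 301 to 350. The match to the spot 1 column further on ran the other way, from 0.051 to 0.755. When the array was divided into 56 blocks of 25 rows and 28 columns, 31 blocks of this array followed a neighbouring spot (r above 0.3), and they held 14271 named probes (56.2%). On 10 µM replicate 2, 5 of 56 blocks did so, in the lower right corner, where values followed the spot 1 row further on, and they held 2237 named probes (8.81%). No block of the other 7 arrays did. These are called shifted blocks here, and the counts over all and over bright probes at a p threshold, and each log2 net difference of a gene's chosen probe that rests on them, are given with their values left out as well. Spots that followed a neighbour more weakly remain outside this cut. On 20 µM replicate 2 the match to the spot 1 column further on was already 0.152 in rows 101 to 150. On 20 µM replicate 1 no block followed a neighbour, but the lowest match of a block to the other arrays was r = 0.586, against 0.801 to 0.918 on the 6 arrays outside replicate 1 at 20 µM and without shifted blocks.

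**Figure D1:**
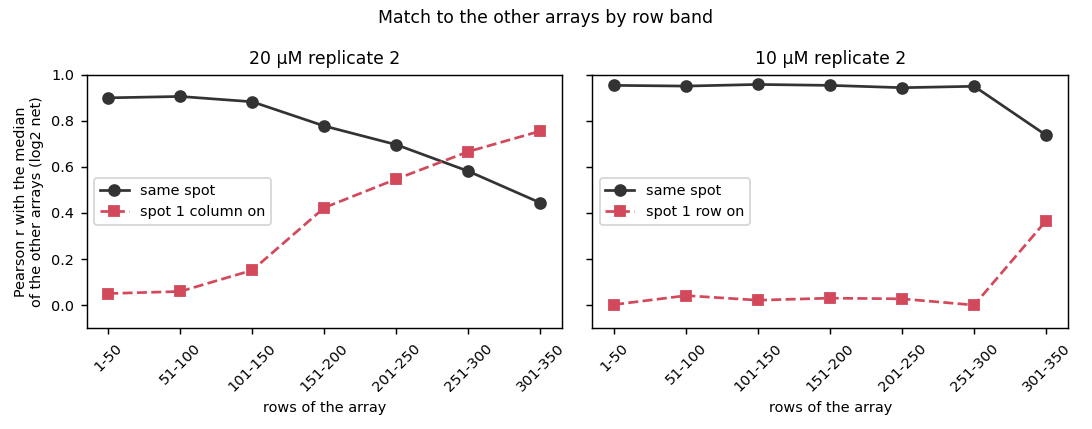
Pearson correlation, across spots, of log2 net intensity with the median of the other arrays, for bands of 50 rows (x axis), at the same spot (black) and at a neighbouring spot (red). On 20 µM replicate 2 the line for the spot 1 column on passes the line for the same spot in rows 251 to 300 (0.666 against 0.581), and on 10 µM replicate 2 the match drops to 0.737 in the last band.

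No gene passed the test between the doses. In limma on raw intensity, 0 of the 25378 named probes passed an adjusted p of 0.05 (0%), and the lowest adjusted p was 0.052. At an unadjusted p under 0.05 there were 856 probes (3.37%), of which 215 had a higher mean at 20 µM (0.847% of those tested) and 641 a lower one (2.53%). On net intensity limma gave 0 probes at an adjusted p under 0.05 (0%), with a lowest adjusted p of 0.75, and 1328 at an unadjusted p under 0.05 (5.23%), with 536 of them higher (2.11%) and 792 lower (3.12%). Differences above 0, of any size, made up 49% of the probes on raw and 49.1% on net intensity. The split depended on the scale and on the shifted blocks. Among those with a low unadjusted p, 25.1% were higher on raw intensity, 40.4% on net intensity and 49.2% after normexp background correction. With shifted blocks left out, raw intensity gave 1 probe with an adjusted p under 0.05 (0.00394%) and 1052 with an unadjusted one (4.15%), 540 higher (2.13%) and 512 lower (2.02%), so that 51.3% were higher. Net intensity then gave 0 and 1505 (5.93%), 775 higher (3.05%) and 730 lower (2.88%), so that 51.5% were higher. Of the 641 lower probes on raw intensity, 482 (75.2%) lay in shifted blocks of 20 µM replicate 2, which hold 56.2% of all named probes, and of the 215 higher ones 109 (50.7%) did. For 1457 probes (5.74%) all 3 net values at 20 µM lay below all 3 at 10 µM, and for 1162 (4.58%) all 3 lay above. All 3 pairs were lower for 3531 probes (13.9%) and higher for 3013 (11.9%).

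The bright probes leaned lower at 20 µM in pairs 1 and 2 and were even in pair 3. The median difference of the 1964 bright probes in log2 net intensity was -0.17 in the fit, with 477 above 0 (24.3%) and 1487 below. At an unadjusted p under 0.05 in limma, 309 bright probes stood out (15.7%), 22 higher (1.12%) and 287 lower (14.6%), and with shifted blocks left out 281 (14.3%), 57 higher (2.9%) and 224 lower (11.4%). In bulk RNA, fewer cells with a transcript and less of it per cell cannot be told apart. Within pair 1 the median difference was -0.21 and 73.9% of the bright probes were lower. Within pair 2 it was -0.27, with 72.1% lower. Within pair 3 the median difference was 0 and 49.9% were lower. The arrays of pair 1 and of pair 3 have no shifted block. Among the 895 bright probes that lie outside shifted blocks on every array the medians were -0.23, -0.15 and -0.0080. Probes that are not bright had medians of -0.0032, 0.0026 and -0.0012. With values in shifted blocks left out, 572 of the 1964 bright probes were above 0 (29.1%). A control probe named Cab, printed on 6 spots and of the Stratagene SpotReport set, was also lower, with a median net intensity of 4447, 2791 and 3081 on the 10 µM arrays and 2424, 1637 and 2205 on the 20 µM arrays. Cab read 4484, 2806 and 3270 on the control arrays, and the study's methods name no spike-in. Its part in the result was not tested. The share of gene probes past the bound was 8.72%, 8.69% and 8.66% at 10 µM and 6.85%, 7.47% and 7.89% at 20 µM. The 2 groups did not overlap, with a difference of -1.29 percentage points (exact permutation test, two-sided, p = 0.1, the smallest that 3 arrays against 3 can give). The lowest of these shares belonged to 20 µM replicate 1, whose bound of 1823 was the highest of the arrays. Median raw, background and net intensity overlapped between the doses.

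**Figure D2:**
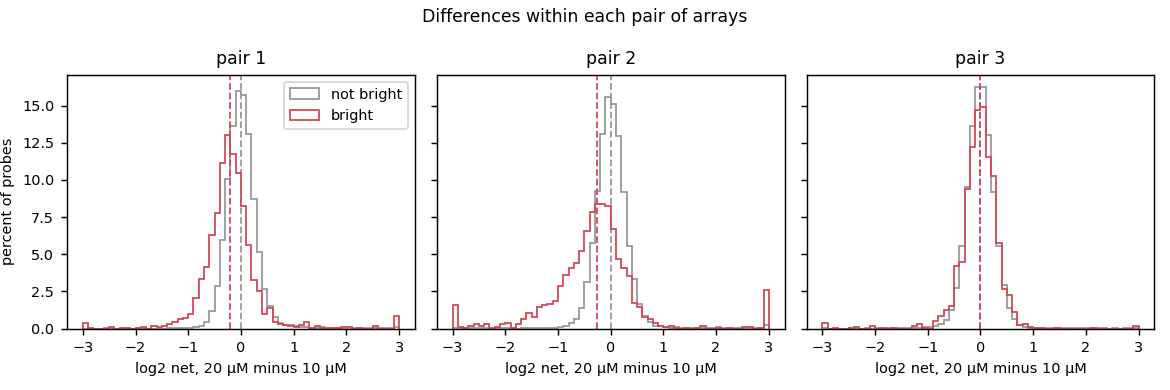
Distribution of the difference in normalised log2 net intensity (x axis, 20 µM minus 10 µM, values beyond 3 drawn at 3) within each pair, as a percentage of the 1964 bright probes (red) and of the other named probes (grey), with medians as dashed lines. The bright probes sit left of 0 in pairs 1 and 2 (-0.21 and -0.27) and at 0 in pair 3.

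Among bright probes, the 8 with a lower mean at 20 µM and the lowest p on net intensity were S100A1, MRPS24, CYP27A1, TNNC2, NOTUM, PSMG4, CRX and SRRM3. For all 8 the net values of the 2 groups did not overlap and all 3 pairs were lower, which their choice by p on the same values nearly fixes. Among all bright probes, on normalised net intensity, the groups did not overlap for 12% that were lower and 1.27% that were higher, and all 3 pairs were lower for 27.5% and higher for 4.02%. CYP27A1, NOTUM, PSMG4 and SRRM3 passed the bound on no 20 µM array and were bright through the other 2 groups. For each the adjusted p in limma on net intensity was 0.75. They belong to no common pathway: they are a muscle calcium sensor, a mitochondrial ribosomal protein, a sterol hydroxylase, a muscle troponin, an extracellular Wnt inhibitor, a proteasome assembly chaperone, a photoreceptor transcription factor and a splicing factor. MRPS24, TNNC2 and SRRM3 lie outside shifted blocks on every array, and the other 5 lie in a shifted block of 20 µM replicate 2. The block of SRRM3 on that array stayed under the cut, but its match to the spot 1 column further on was 0.228. On the other arrays this match was 0.032 to 0.069.

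S100A1, a calcium-binding protein of heart and skeletal muscle, had the lowest p on raw intensity. Its net intensity was 5769, 5891 and 7076 at 10 µM and 4084, 2073 and 2665 at 20 µM, and 5426, 3784 and 4361 in control cells. All 9 values passed the bound, and the 20 µM values lay below every 10 µM value. The difference in log2 raw intensity was -0.47 with an adjusted p of 0.052 in limma, 0.23 with the scan batch as a block, and the difference in log2 net intensity was -0.91 (standard error 0.14, 95% interval -1.22 to -0.60). The pairs differed by -0.46, -1.09 and -1.18 on net intensity. Without the value in the shifted block the net difference was -0.82 (adjusted p = 0.42 in limma). A second S100A1 probe passed the bound on no array and differed by -0.01 in log2 net intensity.

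MRPS24, a protein of the small subunit of the mitochondrial ribosome, had net intensities of 3360, 2529 and 3014 at 10 µM and 1929, 1482 and 1754 at 20 µM. Each passed the bound, and the 10 µM mean was 1.72-fold the 20 µM mean. The difference in log2 net intensity was -0.69 (standard error 0.12), and the pairs differed by -0.91, -0.63 and -0.54. TNNC2, the calcium-binding troponin of fast skeletal muscle, had net intensities of 2798, 2396 and 2556 at 10 µM and 2019, 1331 and 1574 at 20 µM, all above the bound. Its log2 net difference was -0.64 (standard error 0.12). The control arrays, at 3133, 2573 and 2972, lay with the 10 µM arrays. Another TNNC2 probe was not bright and differed by -0.06. SRRM3, a splicing factor of neurons, had net intensities of 2292, 1577 and 1998 at 10 µM, all above the bound, and 1345, 1156 and 1311 at 20 µM, all below them (log2 net difference -0.62). A second SRRM3 probe read 18207 to 23659 at 10 µM and 17385 to 17608 at 20 µM, and its log2 net difference was -0.21 with an unadjusted p of 0.14 in limma. For these 3 genes, outside shifted blocks, every pair was lower, which their choice by p on the same values nearly fixes. None of them passed the adjusted threshold.

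For CYP27A1, the mitochondrial sterol 27-hydroxylase of bile acid synthesis, net intensities were 3704, 1750 and 2384 at 10 µM and 1587, 1046 and 1285 at 20 µM. NOTUM, a secreted enzyme that removes the lipid of Wnt proteins, read 2216, 1497 and 2309 at 10 µM and 1332, 1086 and 1070 at 20 µM. Both passed the bound on all 10 µM arrays and on no 20 µM array. PSMG4, a chaperone of proteasome assembly, went the same way from 1773, 1403 and 1568 to 1160, 1091 and 1120. CRX, a transcription factor of photoreceptors, had 2440, 2027 and 2350 at 10 µM and 1093, 971 and 1509 at 20 µM, and 1 of the 20 µM values passed the bound. With shifted blocks left out, the log2 net differences were -0.88 for CYP27A1, -0.81 for NOTUM, -0.53 for PSMG4 and -0.78 for CRX, with adjusted p from 0.53 to 0.69 in limma. Without 20 µM replicate 3 CRX passed the adjusted threshold on net intensity (-1.14, adjusted p = 0.023 in limma, the lowest of its alternatives, which reach 0.94). That fit kept the value of 971, which lies in a shifted block. A second probe of CRX and one of PSMG4 stayed at or below the bound on every array.

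**Figure D3:**
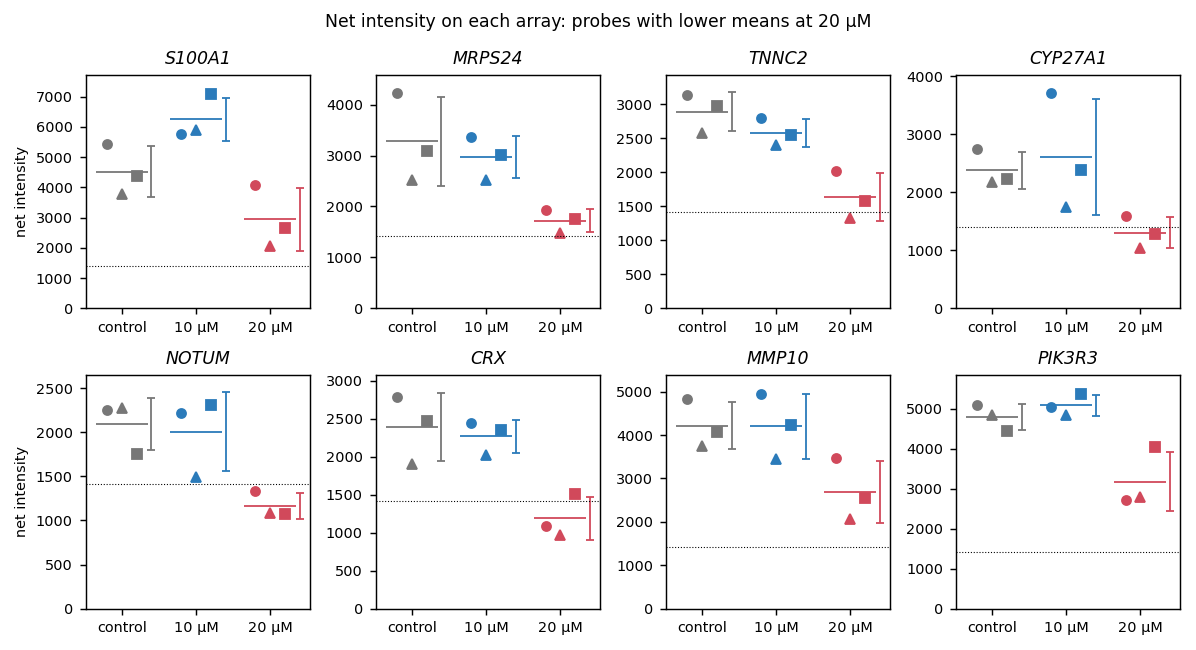
Net intensity (y axis) on each array for 8 named genes with a lower mean at 20 µM, by group. Circles, triangles and squares are replicates 1, 2 and 3, horizontal lines are means, error bars are the SD (n = 3) and the dotted line is the mean over the arrays of the empty spots' 95th percentile. S100A1 reads 5769 to 7076 at 10 µM and 2073 to 4084 at 20 µM, and in every panel but that of MMP10, where the ranges just overlap, the 20 µM arrays sit below all 10 µM arrays. MMP10 and PIK3R3, a matrix protease and a subunit of PI3K, are described with their gene groups.

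On raw intensity the 8 lower probes of lowest p were S100A1, C11orf24, C7orf29, FAM78A, SGSM3, SLC6A7, SLC6A6 and KLHDC4. Of these, the probe of SLC6A6, the taurine transporter, stayed at or below the bound on every array, and its raw difference of -0.22 became 0.003 on net intensity. Of the other SLC6A6 probes 1 passed the bound on 20 µM replicate 1 alone, at 2086, with a log2 net difference of 0.34. The other 7 passed it on all control and 10 µM arrays and lay in a shifted block of 20 µM replicate 2. C7orf29 read 6473, 3864 and 3379 at 10 µM and 3077, 1435 and 1332 at 20 µM, and its pairs were alike, at -1.20, -1.26 and -1.25. With the scan batch as a block it passed the adjusted threshold on net intensity (-1.23, adjusted p = 0.038 in limma), against 0.86 without the block. Both fits kept the value of 1435, which lies in a shifted block. With shifted blocks left out, and without the scan batch in the model, the difference was -1.18 (adjusted p = 0.75 in limma). C11orf24 read 6590, 4173 and 5125 at 10 µM and 4500, 909 and 1359 at 20 µM, so replicate 1 at 20 µM lay within the 10 µM range. Its log2 net difference was -1.51, and -1.03 with shifted blocks left out, which drops the value of 909 (adjusted p = 0.82 in limma). Without 20 µM replicate 1, with that value kept, it was -2.16 (adjusted p = 0.0029 in limma). For SLC6A7, a proline transporter of the brain, the net difference of -0.42 became -0.06 with shifted blocks left out. KLHDC4, a kelch domain protein (-0.49 and -0.27), SGSM3, a modulator of small G proteins (-0.55 and -0.33), and FAM78A (-0.47 and -0.30) also had smaller net differences without those blocks.

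Of the 8 higher probes of lowest p on raw intensity, 7 stayed at or below the bound on every array: KIF15, a mitotic kinesin, ZNF835, a zinc finger protein, SAMD5, PAPOLB, a poly(A) polymerase of testis, FHOD1, a formin that nucleates actin, TFF3, a trefoil peptide of mucus, and TBX20, a transcription factor of the heart. TBX20, ZNF835, PAPOLB and FHOD1 are successive spots of column 2, in rows 346 to 349. A second TBX20 probe was bright, passed the bound on 5 arrays and was lower at 20 µM, with a log2 net difference of -0.44 (unadjusted p = 0.13 in limma). The eighth was CCDC51, a protein of the inner mitochondrial membrane, which read 927, 914 and 831 at 10 µM and 6019, 13820 and 1063 at 20 µM. On 20 µM replicate 2 its spot lies in a shifted block, and the spot 1 column further on, LOC401321, had a median net intensity of 12705 on the 7 arrays other than 20 µM replicates 1 and 2, and read 9641 and 10868 on those. PRSS22, a serine protease, read 1192, 844 and 1164 at 10 µM and 3035, 8040 and 1240 at 20 µM, next to a probe without a name whose median on those 7 arrays was 8879 and which read 7733 and 740 on 20 µM replicates 1 and 2. With shifted blocks left out, the log2 net difference of CCDC51 was 1.53 in place of 2.38 and that of PRSS22 was 0.64 in place of 1.53. For both genes 20 µM replicate 3 lay within 0.26 log2 units of its 10 µM partner. Both passed the bound on 20 µM replicates 1 and 2 and on no other array, so they were bright through those arrays alone. Without 20 µM replicate 3, and with the value in the shifted block kept, CCDC51 passed the adjusted threshold (log2 raw difference 1.63, adjusted p = 2.3e-05 in limma).

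Of the 8 bright probes with a higher mean and the lowest p on net intensity, the other 6 were LOC219347, ZC3HC1, SNCAIP, DCAF7, AMBN and TMX1. LOC219347, SNCAIP, which encodes a partner of alpha-synuclein, AMBN, an enamel matrix protein, and TMX1, a thioredoxin-related protein of the endoplasmic reticulum, all lie in row 337 of the array. That row was brighter than its neighbours on 8 arrays: its gene probes had a median net intensity of 1259 to 1626 there, against 925 to 1142 in rows 336 and 338, and its 32 empty spots 1343 to 1883. On 10 µM replicate 2, the exception, the gene probes of row 337 had a median of 1083 and those of row 338 a median of 1067. On this array LOC219347 read 1089, SNCAIP 1138, AMBN 1049 and TMX1 1105, and their log2 net differences of 0.40 to 0.46 became 0.25 to 0.38 with shifted blocks left out. For TMX1 this dropped the value of 20 µM replicate 2 (1427) only and kept the 1105. Its lowest 10 µM value was 1052, on replicate 3. At 10 µM, LOC219347, AMBN and TMX1 passed the bound on no array and SNCAIP on 2. At 20 µM, LOC219347 and SNCAIP passed it on all 3 arrays, and AMBN and TMX1 on 2. ZC3HC1 and DCAF7 lie outside shifted blocks. ZC3HC1, a nuclear protein of the ubiquitin system, read 1214, 1176 and 1301 at 10 µM, below the bound on every array, and 1838, 1954 and 1517 at 20 µM, above them on every array. Its control values of 2177, 1302 and 1539 spanned both groups, and its log2 net difference was 0.62 (standard error 0.19, adjusted p = 0.86 in limma). DCAF7, a substrate receptor of a ubiquitin ligase, read 3210, 3067 and 3403 at 10 µM and 4324, 3240 and 3274 at 20 µM, so the groups overlapped (0.37 on net intensity, -0.12 on raw intensity).

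**Figure D4:**
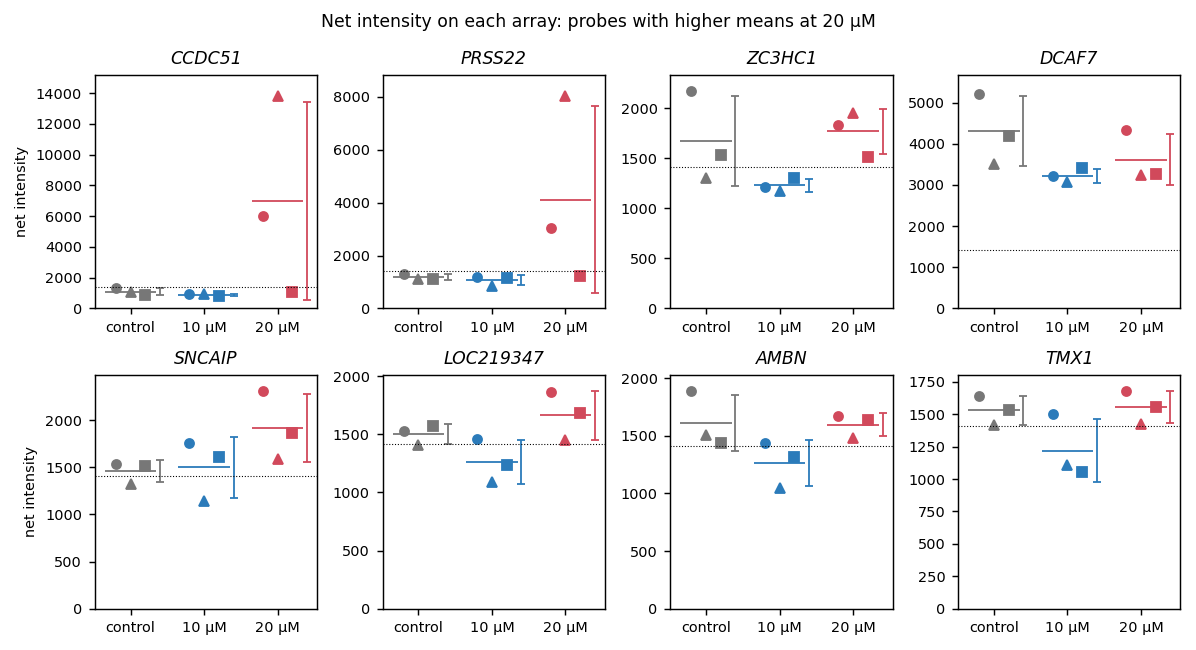
Net intensity (y axis) on each array for 8 bright probes with a higher mean at 20 µM, with symbols, means, SD (n = 3) and dotted line as in the plot of lower genes. CCDC51 and PRSS22 are high on 20 µM replicates 1 and 2 only, while ZC3HC1 is above its 10 µM values (1176 to 1301) on all 3 arrays.

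Genes with a role in adhesion, matrix and migration were taken from lists of pathway members, with the probe of highest mean net intensity standing for each gene. The same count over all 19402 genes is the background: 9312 above and 10090 below 0 on net intensity, with 406 higher and 691 lower by an unadjusted p under 0.05, and 75.7% of the bright ones below 0. Integrin subunits, the receptors that bind cells to matrix, numbered 26, of which 9 were above and 17 below 0 on net intensity, and 1 (ITGB5, -0.32, or -0.30 with shifted blocks left out) was lower at an unadjusted p under 0.05. ITGB1, the common beta subunit, was bright, with 5581, 4118 and 4419 at 10 µM and 4640, 2331 and 3851 at 20 µM. These values overlapped, and its net difference was -0.19. Both probes of ITGB8, the integrin subunit that the study followed up, stayed at or below the bound on every array, so no difference is given. Of 41 core focal adhesion genes, 17 were above and 24 below 0, with 1 higher and 2 lower at that p. All 6 bright ones were below 0. They included LPP, a zyxin family scaffold at adhesion sites, with 3740, 2462 and 3103 at 10 µM and 2710, 1314 and 2023 at 20 µM (-0.59, pairs -0.56, -0.86 and -0.37). VASP, an actin polymerase cofactor, stayed at or below the bound on every array.

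Of 26 matrix metalloproteinases and their inhibitors, 9 were above and 17 below 0 on net intensity, with 1 higher and 4 lower by an unadjusted p under 0.05. On raw intensity 14 were above and 12 below 0. MMP10, stromelysin-2, which degrades proteoglycans and other matrix proteins, had net intensities of 4940, 3438 and 4226 at 10 µM and 3470, 2070 and 2543 at 20 µM, all above the bound and outside shifted blocks. Its block on 20 µM replicate 2 stayed under the cut, with r = 0.209 to the spot 1 column further on. The lowest 10 µM array lay just below the highest 20 µM array, and all 3 pairs were lower, by 0.49, 0.35 and 0.50 (net difference -0.45, standard error 0.11, adjusted p = 0.86 in limma). A second bright MMP10 probe read 3288, 3255 and 3415 at 10 µM and 2284, 1859 and 3130 at 20 µM (-0.32, unadjusted p = 0.13 in limma). MMP10 was thus lower on both probes, without passing the test on either after adjustment. MMP16, a membrane-anchored metalloproteinase, passed the bound on all 10 µM arrays at 1989, 1369 and 1522 and on no 20 µM array, at 1010, 1195 and 1090 (-0.56 on net and 0.01 on raw intensity). The other MMP16 probes stayed at or below the bound on every array. MMP9, gelatinase B, passed the bound on no array.

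Of 33 extracellular matrix genes, 13 were above and 20 below 0, with 2 lower at an unadjusted p under 0.05, LAMB3, a laminin chain of epithelial basement membranes (-0.43), and SPP1, osteopontin (-0.31). Neither was bright, and with shifted blocks left out they differed by -0.44 and -0.33. Cadherins and catenins, the proteins of cell-cell junctions, split 14 and 14, with 1 higher, CDH11 (0.47, or 0.33 with shifted blocks left out, not bright), and 2 lower. CTNNA2, a catenin of neurons, read 2951, 3563 and 3386 at 10 µM and 2300, 1779 and 2119 at 20 µM, all above the bound, and the groups did not overlap (-0.51, and -0.56 with shifted blocks left out). Of 30 genes of epithelial-mesenchymal transition, 9 were above and 21 below 0, and 1, FOXC2, a forkhead factor, was higher at that p (0.44, not bright). Of 23 keratins, 15 were above and 8 below 0 and 0 passed that p on net intensity. The 2 keratins that did on raw intensity were KRT20 (-0.17 on raw, -0.11 on net, where leaving out shifted blocks turned the direction to 0.15) and KRT17 (0.18 on raw, 0.04 on net, at or below the bound on every array).

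Of 34 genes of TGF-β signaling, 12 were above and 22 below 0, with 3 higher and 2 lower by an unadjusted p under 0.05, and all 3 bright ones were below 0. SMAD3, the transcription factor of the pathway, read 2256, 1766 and 1913 at 10 µM and 1617, 1355 and 1486 at 20 µM, without overlap and outside shifted blocks (-0.37). Of those 20 µM values 2 passed the bound. The other 2 SMAD3 probes stayed at or below the bound on every array and differed by -0.04 and -0.06. TGFBR2, the ligand-binding receptor, read 5296, 3307 and 4747 at 10 µM and 4043, 1686 and 2857 at 20 µM (-0.48, and -0.26 with shifted blocks left out). In the PI3K, Akt and mTOR list, 13 of 29 were above and 16 below 0, with 1 higher and 2 lower. PIK3R3, a regulatory subunit of PI3K, read 5054, 4841 and 5371 at 10 µM and 2716, 2783 and 4035 at 20 µM, all above the bound (-0.52, standard error 0.22). Its pairs were -0.98, -0.42 and -0.17, and a second probe that was not bright differed by -0.09. Among 32 MAP kinases, 14 were above and 18 below 0, with 3 lower, one of them the kinase MAP2K4 (-0.39, not bright). Of 45 Wnt genes, 21 were above and 24 below 0, with 2 higher, one of them DKK2, a secreted Wnt inhibitor (0.25, at or below the bound on every array).

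Of 22 heat shock proteins, 9 were above and 13 below 0 on net intensity, with 0 higher and 4 lower by an unadjusted p under 0.05, and 5 of the 6 bright ones were below 0. BAG3, a co-chaperone of HSP70, read 4461, 3033 and 4997 at 10 µM and 3561, 1968 and 2306 at 20 µM (-0.48, and -0.44 with shifted blocks left out). HSPA1B, an inducible HSP70, read 1896, 2084 and 1749 at 10 µM and 1954, 1028 and 1402 at 20 µM (-0.49, and -0.31 with shifted blocks left out). Of its 20 µM values 2 passed the bound. Both BAG3 and HSPA1B overlapped between the groups, and the HSPA1B probe may also read its near-identical copy HSPA1A. In the unfolded protein and ATF4 response, 18 of 30 were above and 12 below 0, with 3 lower. ERN1, the endoplasmic reticulum stress sensor IRE1, read 1995, 1503 and 1978 at 10 µM and 1799, 1108 and 1404 at 20 µM (-0.40). It passed the bound on all 10 µM arrays and on 1 of the 20 µM arrays. Of 30 NF-κB and inflammation genes, 11 were above and 19 below 0, with 1 lower, and NFKB2, the p100 subunit, was bright and differed by -0.33 on net intensity (-0.26 with shifted blocks left out) with overlapping groups. The interferon response split 15 and 17, with 1 higher and 2 lower, among them BST2, which tethers viruses to the cell (-0.33, at or below the bound on every array).

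The genes closest to the known actions of baicalein gave little signal. ALOX12 and ALOX15, the lipoxygenases, CYP1A1, the main target of the aryl hydrocarbon receptor, and NQO1, a target of NRF2, stayed at or below the bound on every array, and HMOX1, heme oxygenase, passed it on 1 control array only. The arachidonic acid list split 15 and 16 of 31, with CYSLTR1, a leukotriene receptor, higher at an unadjusted p under 0.05 (0.32 with and without shifted blocks). PTGS2, the inducible cyclooxygenase, was lower on raw intensity at that p (-0.14), and neither passed the bound on any array. Of 29 NRF2 targets, 20 were above and 9 below 0 on net intensity and 13 and 16 on raw intensity, with 0 at that p on either scale. Of 12 targets of the aryl hydrocarbon receptor, 8 were above and 4 below 0, with 1 lower, NFE2L2, the gene of NRF2 itself (-0.38, not bright). Of 22 genes of conjugation and efflux, 11 were above and 11 below 0, with 3 lower, among them GSTM4 (-0.32, not bright), which conjugates glutathione.

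Cell cycle genes of G1 and S phase split 17 and 15 of 32, with 2 lower, MCM2, a replication helicase subunit (-0.30), and TYMS, thymidylate synthase (-0.27), and those of G2 and mitosis split 17 and 17 of 34, with 2 lower, among them TTK, a checkpoint kinase (-0.38, and -0.34 with shifted blocks left out). None of these 3 was bright. Apoptosis genes split 21 and 15 of 36, with 1 lower, BID, a death agonist (-0.38, at or below the bound on every array). Targets of p53 split 15 and 14 of 29, with 2 higher, among them SESN1, a stress-induced sestrin (0.54), and 1 lower, AEN, a nuclease (-0.38), neither bright. With shifted blocks left out SESN1 differed by 0.57 and AEN by -0.41. CDKN1A, the cell cycle inhibitor p21, passed the bound on all 10 µM arrays at 1880, 1463 and 1550 and on 2 of the 20 µM arrays, at 1086, 1451 and 1450. Its net difference was -0.22 (95% interval -0.59 to 0.15), 0.006 without 20 µM replicate 1 and -0.37 with shifted blocks left out. Hypoxia targets split 15 and 12 of 27 with 0 at an unadjusted p under 0.05, and cholesterol synthesis split 14 and 13 of 27 with 0 on net intensity. The abundant genes of any growing cell split 5 and 11 of 16 with 0 at that p.

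Longer lists held markers of cell types not present in a carcinoma line. Immune cell markers were above 0 for 6 and below for 7 of 13, and 1, CD3D of T cells, was bright and lower at an unadjusted p under 0.05 (2573, 2054 and 2551 at 10 µM, 2168, 1111 and 1992 at 20 µM). Of these 20 µM values 2 passed the bound. A second CD3D probe, not bright, went the other way, with 1104, 9838 and 959 at 20 µM. Its log2 net difference was 0.93 (unadjusted p = 0.21 in limma). Fibroblast and endothelial markers were above 0 for 5 and below for 10 of 15, with CDH5, an endothelial cadherin, lower (-0.26, or -0.25 with shifted blocks left out, at or below the bound on every array). The net median of these 15 markers, -0.11, was the lowest of the lists. The 28 lists had medians from -0.05 to 0.02 on raw intensity and from -0.11 to 0.06 on net intensity, against -0.003 and -0.008 over all genes. For 15 of the 28 the raw and the net median had opposite signs. No list held a gene with an adjusted p under 0.05 in limma. Of the 96 entries of bright genes in the lists, 76 were below 0, beside 75.7% of all bright genes.

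**Figure D5:**
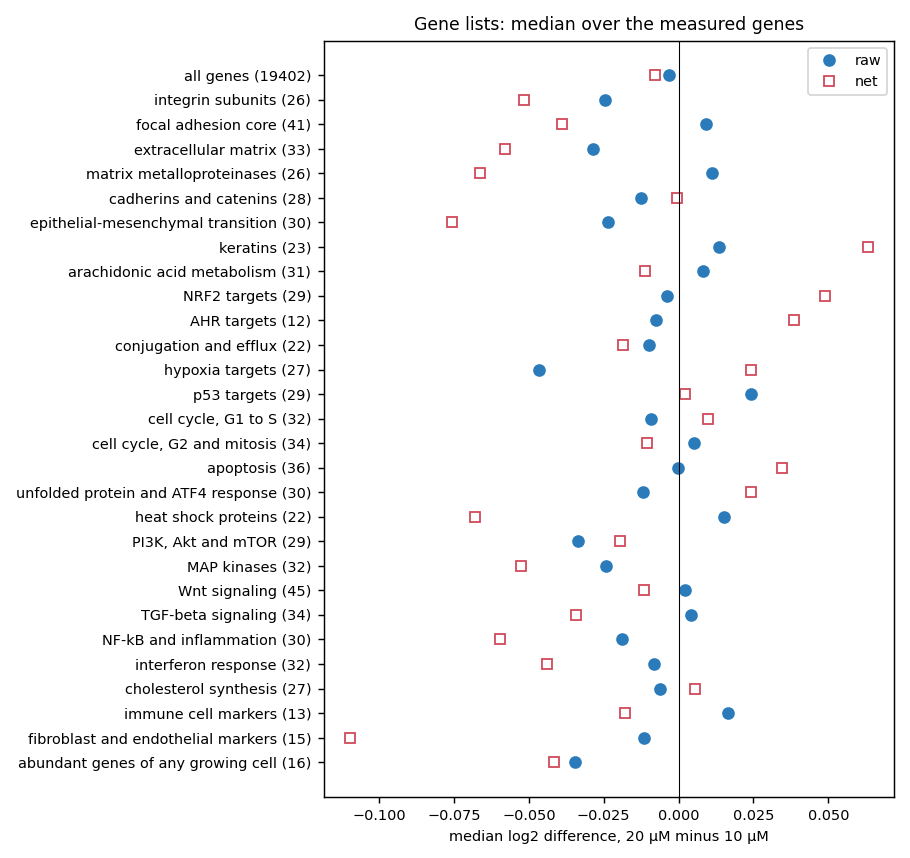
Median difference in log2 intensity (x axis, 20 µM minus 10 µM) over the measured genes of each list, with the number of genes in parentheses, on raw (blue circles) and net intensity (red squares). All medians lie between -0.11 and 0.06, and those of all genes are -0.003 and -0.008.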

How the data were processed

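RNA of HK-1 cells was hybridised to 9 whole-genome arrays of 1 colour, 3 per group. In the deposited scanner files each spot has a raw, a background and a net intensity. A table of processed values deposited by the authors is treated here as a score, of unknown scaling and centring, and served as an alternative only. The methods name log2 transformation with median and quantile normalization and an equal-variance test.

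Raw intensity was log2-transformed, centred on each array's median and quantile-normalized. Net intensity was scaled to a common median, set to a floor of 250, log2-transformed and quantile-normalized. Each probe has 1 spot per array. Spots were placed on a grid of 350 rows and 112 columns inferred from the order of the file. On each scale 1 model of all 3 groups was fitted with limma 3.58.1 (R 4.3.3), with Benjamini-Hochberg adjustment over 25378 named probes. Control spots, empty spots and 3809 gene probes without a name did not enter it. Of 19402 names, 16009 are current symbols and 2385 older symbols only. With 3 arrays per group, their number limits the precision.

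Named genes are the 8 higher and 8 lower probes of lowest p on raw intensity, the same among bright probes on net intensity, up to 2 genes per list of 28 lists with an unadjusted p under 0.05, and 8 genes chosen for baicalein or for the study; SNX25, C1orf54, KREMEN2, VEZF1 and TRPM7 were named after their values were seen. A few genes under this rule are in the counts only. The members and the lists were chosen with earlier results of these data known. Alternatives were a replicate block, the 6 arrays alone, normexp (offset 50), median centring, cyclic loess, bright probes only, limma with trend and robust, array weights, the methods' t-test, the authors' table, a higher floor (1000), the mean over a gene's probes and leaving out each array. Leaving out shifted blocks was added after the data were seen.

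On simulated data, 50 probes were changed at each size among 25378. Of them limma on raw intensity called 16% at a log2 change of 0.25, 72% at 0.5 and 100% at 1. On net intensity it called 0%, 14% and 84% at the same sizes. Background made up most of raw intensity, so the same log2 size stands for a larger change of spot signal there. The raw and net percentages are therefore not comparable at the same size. Rates for arrays with shifted blocks, or for bright probes alone, are not given. Figures were drawn with matplotlib 3.10.9.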

Additional observations from a re-analysis of the deposited data

Results flagged for a closer look

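Control spots lit up on single baicalein arrays. Empty spots with a net intensity above 5000 numbered 52 on 20 µM replicate 2 and 21 on 20 µM replicate 1, against 2 to 10 on the control arrays. On 20 µM replicate 2, 23 of 48 spots of the Ambion ArrayControl spike-in probes, 26 of 60 of the Stratagene Alien probes and 21 of 54 of the Stratagene SpotReport probes other than Cab also passed 5000. On the control arrays at most 1 spot of each set did. On 10 µM replicate 2, 1 SpotReport spot passed it, where the control arrays had 0. What lit these spots was not tested, and the shifted blocks of 20 µM replicate 2 are described with the arrays.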

How the results depend on the processing

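On raw intensity, where 0 probes had an adjusted p under 0.05, array weights gave 1 (S100A1) and leaving out shifted blocks gave 1 (VEZF1, which is above 1300 on 20 µM replicate 3 only, at 3907). Leaving out single arrays gave 0 to 2, with 1 without 20 µM replicate 2 (VEZF1) and 2 without 20 µM replicate 3 (CCDC51 and TRPM7). S100A1, CCDC51 and TRPM7 lie in a shifted block of 20 µM replicate 2, and the fits that called them kept that value. TRPM7 passed the bound on all 10 µM arrays and on 20 µM replicates 1 and 3. The 856 probes at an unadjusted p under 0.05 became 1746 with array weights, 198 of 1964 with bright probes only, 1328 on net intensity, 1367 after normexp, 1350 in the authors' table and 136 with shifted blocks left out and bright probes only. Without single arrays they ranged from 718 to 1633, and were 1381 without 20 µM replicate 2 and 1633 without 20 µM replicate 3. Of them 39.3% were higher with cyclic loess and 41% in the authors' table, against 25.1%.

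On net intensity, leaving out single arrays gave 0 to 4 probes at an adjusted p under 0.05, with 2 without 20 µM replicate 1 (SNX25 and C11orf24) and 4 without 20 µM replicate 3 (CRX, CCDC51, C1orf54 and KREMEN2). All of these probes lie in a shifted block of 20 µM replicate 2, and these fits kept that value. SNX25, C1orf54 and KREMEN2 also lie in a shifted block of 10 µM replicate 2. These genes passed the bound on all 10 µM arrays. At 20 µM SNX25 passed it on replicate 1 only, and C1orf54 and KREMEN2 on replicate 3 only. The 1328 at an unadjusted p under 0.05 became 179 with bright probes only and 165 with shifted blocks left out as well. Without single arrays they ranged from 1175 to 1951.

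Deviations of 20 µM and 10 µM arrays from the means of their groups had correlations of -0.11 to -0.07 between same-numbered arrays on raw intensity and 0.006 to 0.058 on net intensity, so the arrays of a pair share a scan batch and a number but did not deviate together. With the replicate number as a block, 684 probes on raw and 1310 on net intensity had an unadjusted p under 0.05, with 0 on raw and 1 on net intensity (C7orf29) after adjustment. That fit kept the value of C7orf29 in a shifted block of 20 µM replicate 2.

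The raw difference of SLC6A6 (-0.22) was 0.0031 on net intensity, 0.089 after normexp and 0.043 in the authors' table. That of IFIH1, an RNA sensor (0.26), was -0.11, -0.25 and -0.39. CDKN1A was -0.22 on net intensity and ranged from -0.37 without 20 µM replicate 2 to 0.0060 without 20 µM replicate 1. The causes were not tested. Spot signal limits these results: 20665 of the named probes were above the empty spots on none of the 6 arrays.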
